A study of Homo sapiens with 12 samples.

Results

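The JAK kinases and STAT factors of L-540 cells, an established Hodgkin lymphoma line, are described here as the probes whose platform gene symbol is one of 9 named genes: STAT2, STAT3, STAT4, STAT5A, STAT5B, STAT6, JAK1, JAK2 and TYK2. The annotation named 10 of the 48803 probes for 8 of these genes, 3 of them for STAT3 and 1 for each of the others, and no probe is named for STAT2 here. The cells had been given 100 nM givinostat, 5 µM sorafenib, both drugs together (the combination) or neither (control), each for 24 hours. There were 3 samples per group, lettered A, B and C, and 12 arrays in all. Givinostat inhibits histone deacetylases and sorafenib inhibits several protein kinases. All samples came from 1 cell line and were taken at 1 time point. The labels do not say whether the lettered samples were separate cultures, and if they were not, the spread behind each p-value is a technical one.

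Cytokines signal through receptor chains that carry JAK kinases on their inner side. Ligand binding brings the kinases together, they phosphorylate the receptor, and STAT factors dock there, are phosphorylated in turn, pair up through their SH2 domains and enter the nucleus to bind DNA. In classical Hodgkin lymphoma this pathway is often switched on without pause, and STAT6, STAT3 and STAT5 are known to be phosphorylated in the tumour cells. The arrays measured mRNA, not phosphorylation.

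The promoters of 4 members are shown. That of STAT4 is shown because this gene was the only member called changed, as defined below, with every treatment. Those of STAT5B, STAT5A and STAT3 are shown because they follow each other on chromosome 17 in RefSeq. Each is the first window listed for the gene by RefSeq (GRCh38.p14), 300 bases from 250 before to 50 after the start of transcription, 5′ to 3′ on the gene's own strand. Capitals mark the GC box GGGCGG on either strand, a motif of Sp1-type factors.
STAT4 chr2:191151547-191151846, minus strand: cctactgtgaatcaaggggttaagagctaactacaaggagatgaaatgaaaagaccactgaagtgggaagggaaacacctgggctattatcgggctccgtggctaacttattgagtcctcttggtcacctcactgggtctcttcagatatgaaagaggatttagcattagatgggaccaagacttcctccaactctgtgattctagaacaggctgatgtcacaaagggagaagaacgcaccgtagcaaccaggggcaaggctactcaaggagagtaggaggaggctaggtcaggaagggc
STAT5B chr17:42276342-42276641, minus strand: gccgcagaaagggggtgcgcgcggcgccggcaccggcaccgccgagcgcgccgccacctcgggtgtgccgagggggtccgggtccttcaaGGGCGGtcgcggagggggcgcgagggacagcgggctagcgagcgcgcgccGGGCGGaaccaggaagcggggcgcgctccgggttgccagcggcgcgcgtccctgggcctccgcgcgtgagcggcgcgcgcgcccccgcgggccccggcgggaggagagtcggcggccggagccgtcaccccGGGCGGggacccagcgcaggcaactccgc
STAT5A chr17:42287189-42287488, plus strand: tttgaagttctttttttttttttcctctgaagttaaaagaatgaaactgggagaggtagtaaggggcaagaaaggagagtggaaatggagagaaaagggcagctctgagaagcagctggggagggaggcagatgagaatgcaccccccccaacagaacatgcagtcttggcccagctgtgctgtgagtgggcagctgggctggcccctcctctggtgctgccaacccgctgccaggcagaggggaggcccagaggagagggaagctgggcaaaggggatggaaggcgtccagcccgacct
STAT3 chr17:42388393-42388692, minus strand: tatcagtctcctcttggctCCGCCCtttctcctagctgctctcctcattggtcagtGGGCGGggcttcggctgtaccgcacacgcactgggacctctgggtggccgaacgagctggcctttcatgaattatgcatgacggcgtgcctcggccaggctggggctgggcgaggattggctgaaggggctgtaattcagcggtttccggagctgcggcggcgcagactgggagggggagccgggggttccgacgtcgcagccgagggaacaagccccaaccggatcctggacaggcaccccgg

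All 9 genes had at least 1 such window, 17 in all. The STAT4 window had a GC content of 49.0% and no GC box, and the STAT5A window 56.3% and no GC box. The STAT5B window had 82.0% and 3 GC boxes, and the STAT3 window 65.3% and 2 GC boxes. The second STAT4 window and the third STAT5A window had 56.7% and 75.0%, with 0 and 1 GC boxes, so the alternative starts of a gene differ. A GC box is present in 45.0% of all 35116 windows of this length. One form of STAT-binding motif, TTCNNNGAA, which reads the same on both strands, was in 0 of the 17 member windows. It was in 7.66% of all windows. Forms with another spacing between TTC and GAA were not searched. Such stretches are in windows printed above, among them ttcctctgaa in STAT5A, ttctagaa in STAT4 and ttcatgaa in STAT3. These matches describe letters in a window and nothing about binding.

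The 12 arrays had median raw intensities from 418.1 to 681.1, and an array detected from 22.4% to 30.9% of its probes. Combination B stood apart, with the highest median and the lowest share detected, and calls lost without it are given beside the results. Probes that no group detected on each of its 3 arrays (detection p under 0.05) were left out, and 11801 probes remained. These gave 8079 genes at the brightest kept probe per gene, and a gene was called changed when limma's Benjamini-Hochberg adjusted p over all 8079 was under 0.05. Of 11 Hodgkin cell markers, 8 were detected on all 12 arrays, among them TNFRSF8, which encodes CD30, IL2RA, FUT4 and BATF3. IRF4 was detected on 6, CCL17 on 1 and CD40 on none. Of the T cell markers, CD2 and CD4 were detected on all 12 arrays, CD3E on 1, and CD3D and CD3G on none. No B cell or fibroblast marker was detected on all 12 arrays, and of the 5 myeloid markers only CSF1R was. The same letter moved arrays together in control, givinostat and sorafenib, so for givinostat and sorafenib values with the letter as a block, fitted without the combination arrays, are given where they bear on a call. Since the samples are bulk RNA, fewer expressing cells and less mRNA per cell cannot be told apart.

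Of the 9 genes, 7 were tested (STAT3, STAT4, STAT5A, STAT5B, STAT6, JAK1 and TYK2). Their 9 probes were detected on all 12 arrays. JAK2 had no group in which all 3 arrays detected its probe and was not tested. All levels below are background-corrected, quantile-normalized log2 intensities, and a log2 change is a difference of group means of these. Each belongs to 1 probe, so levels of different genes are not set against each other.

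**Figure D1:**
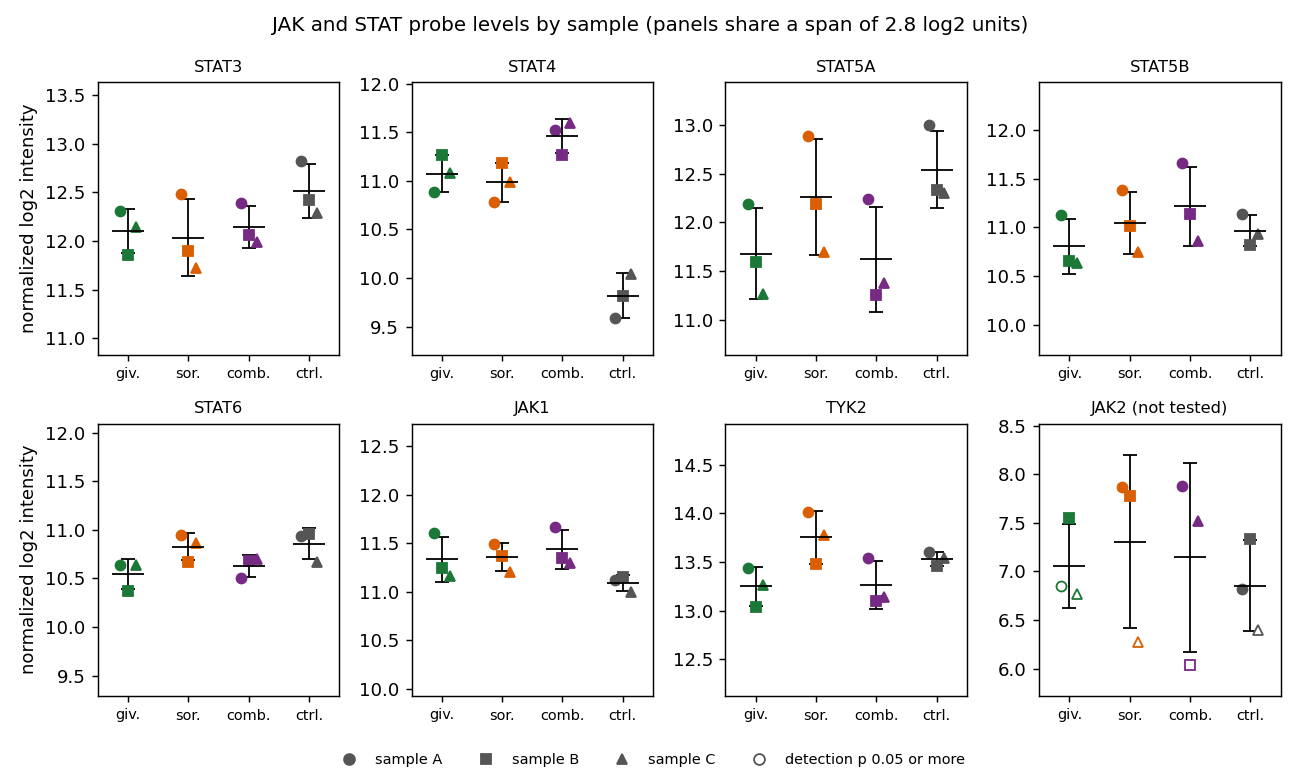
Normalized log2 intensity (vertical axis) of the tested probe of each gene, and of the only JAK2 probe, in the 3 samples of the givinostat, sorafenib, combination and control groups. Symbols are samples A, B and C, open symbols have a detection p of 0.05 or more, the long dash is the group mean and the bars are 1 SD. STAT4 lies between 9.59 and 10.05 in control and above 10.78 in every treated sample, while the STAT3, STAT5B and JAK2 groups overlap.

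STAT4 carries signals of interleukin-12 and type I interferon to the nucleus in T and NK cells. Its level was 10.89, 11.26 and 11.08 in givinostat samples A, B and C, 10.79, 11.19 and 10.99 in sorafenib samples, 11.53, 11.26 and 11.60 in combination samples, and 9.59, 9.82 and 10.05 in control samples. All 9 treated samples were above all 3 control samples. The group means were 11.08 ± 0.19 for givinostat, 10.99 ± 0.20 for sorafenib, 11.46 ± 0.18 for the combination and 9.82 ± 0.23 for control (SD, n = 3 each). In the order control, sorafenib, givinostat, combination, only the step from control to sorafenib separated the ranges of neighbouring groups.

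STAT4 rose by 1.26 ± 0.17 on the log2 scale (SE; 2.39-fold) with givinostat, with a limma adjusted p of 0.0466. This made it 1 of 7 members tested that was called, against 0.0866% of all genes (7 of 8079), and 0.0743% were called higher. With sorafenib STAT4 rose by 1.17 ± 0.17 (2.25-fold, limma adjusted p = 0.00597), again the only member called, against 3.38% of all genes and 1.94% called higher (157 genes higher and 116 lower, or 11 and 13 with array median scaling). With the combination it rose by 1.65 ± 0.17 (3.13-fold, limma adjusted p = 0.000914), the only member called, against 6.99% of all genes and 4.02% called higher (325 genes higher and 240 lower, or 28 and 68 with array median scaling). These 3 comparisons share the control samples. By p-value STAT4 ranked 2nd of 8079 genes with givinostat, 31st with sorafenib and 7th with the combination.

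The combination call for STAT4 held under all 22 alternatives run, with log2 changes from 1.26 to 1.76 and 1.75 without combination B. The sorafenib call held under 21 of 23 and was lost with array median scaling (limma adjusted p = 0.152) and when only sorafenib and control were fitted (0.0516). The givinostat call held under 10 of 23. It was lost with array median scaling (0.118), without a filter on dim probes (0.0976), with all kept probes tested (0.0745) and when only givinostat and control were fitted (0.146). It was also lost without control A (0.125), control B (0.106), control C (0.0699), givinostat B (0.246), givinostat C (0.128), sorafenib A (0.0544), sorafenib C (0.063), combination A (0.0527) or combination C (0.0612). With sample letter as a replicate block, without the combination arrays, the givinostat call of STAT4 had an adjusted p of 0.0156.

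The combination was set against each drug alone. For STAT4 it was above givinostat alone by 0.39 ± 0.17 (95% confidence interval 0.02 to 0.76, limma adjusted p = 0.234). The highest givinostat sample and the lowest combination sample both read 11.26. With array median scaling, which moved the median of all genes to -0.389 in this comparison, the STAT4 difference was -0.047, or 0.342 above that median. It was above sorafenib alone by 0.48 ± 0.17 (interval 0.11 to 0.85, limma adjusted p = 0.217), with all 3 combination samples above the 3 sorafenib samples, as for 9.8% of all genes. Both comparisons missed the threshold. The interaction, which is the combination minus givinostat minus sorafenib plus control, was -0.78 ± 0.24 for STAT4 (interval -1.30 to -0.26). Its unadjusted p was 0.00709 and its limma adjusted p 0.758. The limma fit called 0 of 8079 interactions, and 473 had an unadjusted p under 0.05 (5.85%).

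The 3 genes whose levels followed STAT4 most closely over the 12 arrays were EIF4E3 (Pearson r 0.952), CEP41 (0.951) and STXBP6 (0.951). These are descriptions over 12 arrays that share 4 groups. The summed intensity of 8 T cell markers, in which STAT4 is not counted, was 2143 to 3035 with givinostat, 2488 to 2994 with sorafenib, 2681 to 2691 with the combination and 1852 to 2386 in control. Only CD2 and CD4 among them were detected on all 12 arrays and CD3D, CD3G, CD5 and CD8A were detected on none. The sum adds linear intensities, so CD2 weighs most in it, with log2 values from 10.04 to 11.21, against 7.62 to 8.68 for CD4. The part of this marker list in the STAT4 result was not tested.

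STAT5A and STAT5B are close paralogues activated by interleukin-2 family cytokines, and they lie next to each other. STAT5A had 12.18, 11.59 and 11.26 in givinostat samples A, B and C, 12.89, 12.19 and 11.70 in sorafenib samples, 12.24, 11.25 and 11.37 in combination samples, and 12.997, 12.33 and 12.30 in control samples. All givinostat and all combination samples were below all control samples, while the sorafenib samples overlapped with control. Sample A was the highest in each of the 4 groups.

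STAT5A differed from control by -0.87 ± 0.36 with givinostat (1.82-fold lower, interval -1.67 to -0.07, limma adjusted p = 0.344). With the combination the difference was -0.92 ± 0.36 (1.89-fold lower, interval -1.72 to -0.12, limma adjusted p = 0.15). Without combination B the combination difference was -0.74. Neither passed, and the sorafenib difference was -0.28 ± 0.36 (interval -1.08 to 0.52, limma adjusted p = 0.728). Compared within letters, givinostat minus control was -0.81 in A, -0.74 in B and -1.05 in C. With sample letter as a replicate block the givinostat fall of STAT5A passed, at the same size with an SE of 0.13 and an adjusted p of 0.0294 (combination arrays left out). The same block gave 146 called genes with givinostat in place of 7.

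The STAT5B level was 11.13, 10.65 and 10.63 with givinostat, 11.38, 11.02 and 10.75 with sorafenib, 11.66, 11.14 and 10.86 with the combination, and 11.14, 10.82 and 10.94 in control. The groups overlapped in all 5 pairwise comparisons. STAT5B differed from control by -0.16 ± 0.23 with givinostat (interval -0.67 to 0.35), 0.08 ± 0.23 with sorafenib (interval -0.43 to 0.59) and 0.25 ± 0.23 with the combination (interval -0.26 to 0.76). Its limma adjusted p-values were 0.826, 0.882 and 0.544 in that order, and with array median scaling the combination difference was -0.076, or 0.216 above the median of all genes, which that scaling moved to -0.292. Sample A was again the highest of each group. Whether the STAT5A and STAT5B changes differ was not tested.

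**Figure D2:**
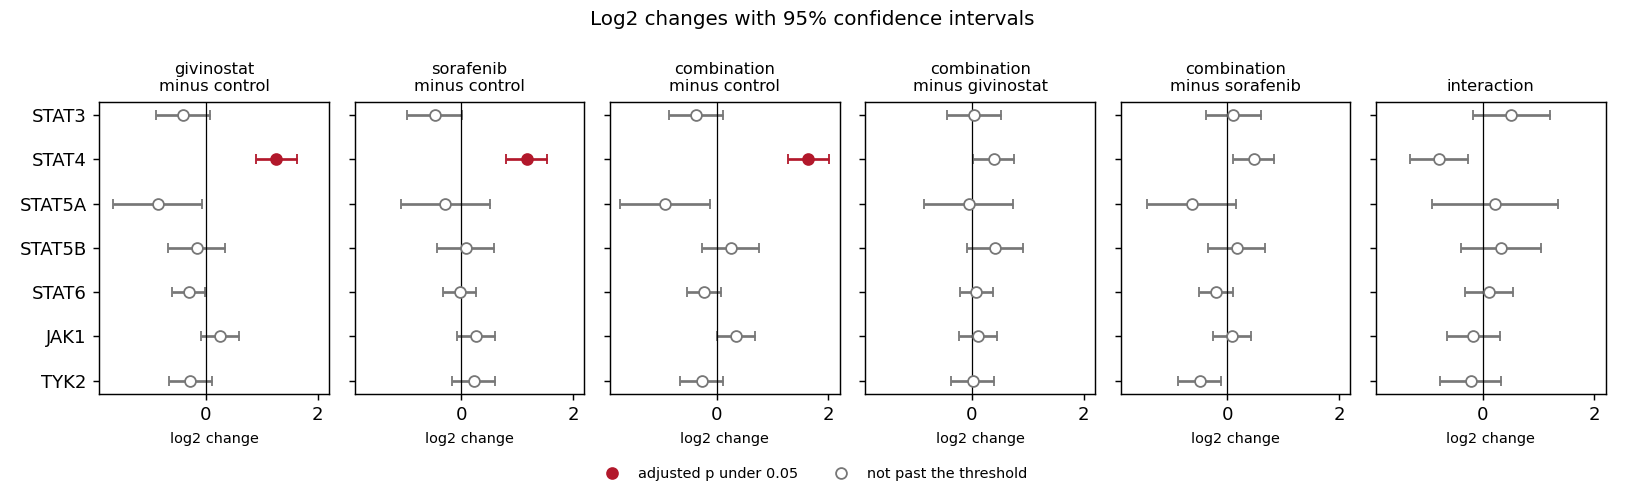
Log2 change (horizontal axis) of the 7 tested genes in the 6 comparisons, with 95% confidence intervals from limma. Filled points have an adjusted p under 0.05 over 8079 genes, and they are STAT4 with givinostat (1.26), sorafenib (1.17) and the combination (1.65).

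STAT3, which carries interleukin-6 and interleukin-10 signals, was measured by 3 probes. The brightest probe, ILMN_2401978, read 12.31, 11.86 and 12.14 with givinostat, 12.48, 11.90 and 11.73 with sorafenib, 12.39, 12.06 and 11.99 with the combination, and 12.83, 12.43 and 12.29 in control. Each group overlapped with control. The differences from control were -0.41 ± 0.22 with givinostat, -0.48 ± 0.22 with sorafenib and -0.37 ± 0.22 with the combination, with limma adjusted p-values of 0.478, 0.259 and 0.341. With sample letter as a replicate block the sorafenib difference had an adjusted p of 0.0751 (combination arrays left out).

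The other STAT3 probes had the same sign in all 3 comparisons with control. ILMN_1663618 read 10.86, 10.47 and 10.59 with sorafenib and 11.31, 11.05 and 11.29 in control, a difference of -0.57 ± 0.17 (unadjusted p = 0.00572, limma adjusted p = 0.103 over the 11801 kept probes). ILMN_2410986 read 11.81, 11.42 and 11.38 with sorafenib and 12.29, 11.81 and 11.98 in control, a difference of -0.49 ± 0.22 (limma adjusted p = 0.271). On both of these probes every sorafenib sample was below every control sample. With givinostat their differences were -0.29 ± 0.17 and -0.33 ± 0.22 (limma adjusted p = 0.554 and 0.626). With the combination they were -0.34 ± 0.17 and -0.45 ± 0.22 (limma adjusted p = 0.266 and 0.267). No STAT3 probe passed in any comparison.

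**Figure D3:**
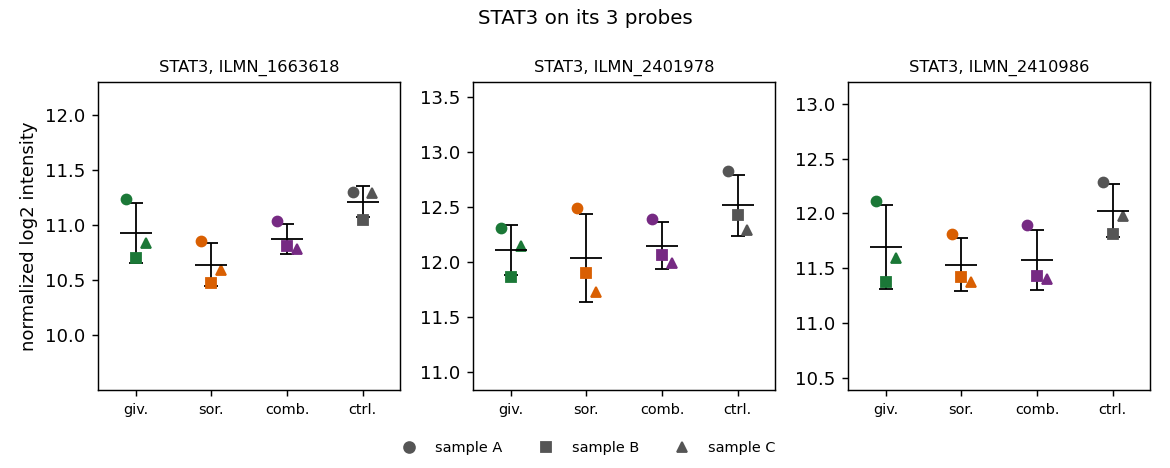
Normalized log2 intensity (vertical axis) of STAT3 on its 3 probes in the 3 samples of the givinostat, sorafenib, combination and control groups. Symbols are samples A, B and C, the long dash is the group mean and the bars are 1 SD. On ILMN_1663618 and ILMN_2410986 the sorafenib samples lie below the control samples, and on ILMN_2401978 the ranges overlap.

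STAT6 answers interleukin-4 and interleukin-13, and interleukin-13 is a growth factor of Hodgkin cells. STAT6 had 10.63, 10.37 and 10.64 with givinostat, 10.94, 10.67 and 10.87 with sorafenib, 10.50, 10.68 and 10.70 with the combination, and 10.93, 10.96 and 10.67 in control. The givinostat samples were all below the control samples. The givinostat difference was -0.31 ± 0.14 (interval -0.61 to -0.01, limma adjusted p = 0.368). It was -0.03 ± 0.14 with sorafenib (limma adjusted p = 0.933) and -0.23 ± 0.14 with the combination (limma adjusted p = 0.343). None passed, and the whole range over the 12 arrays was 0.59 on the log2 scale, the narrowest of the 10 probes.

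Among the kinases, JAK1 pairs with many receptor chains, including those for interferons and the gp130 family. JAK1 was 11.60, 11.24 and 11.16 with givinostat, 11.49, 11.37 and 11.21 with sorafenib, 11.67, 11.35 and 11.30 with the combination, and 11.12, 11.15 and 10.996 in control. Every treated sample was above every control sample, by a small margin. The differences from control were 0.25 ± 0.15 with givinostat, 0.27 ± 0.15 with sorafenib and 0.35 ± 0.15 with the combination, with limma adjusted p-values of 0.546, 0.369 and 0.193. None passed, and the interval for the combination was 0.01 to 0.69.

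TYK2 serves interferon and interleukin-12 receptors. TYK2 was 13.44, 13.04 and 13.27 with givinostat, 14.02, 13.48 and 13.77 with sorafenib, 13.54, 13.10 and 13.14 with the combination, and 13.60, 13.46 and 13.54 in control. The givinostat samples were below the control samples, and the sorafenib and combination samples overlapped with control. The differences from control were -0.28 ± 0.17 with givinostat, 0.22 ± 0.17 with sorafenib and -0.27 ± 0.17 with the combination, with limma adjusted p-values of 0.541, 0.53 and 0.386. The combination minus sorafenib alone was -0.49 ± 0.17 for TYK2 (interval -0.88 to -0.11), with an unadjusted p of 0.0168 and a limma adjusted p of 0.219, so it did not pass.

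JAK2, the kinase of erythropoietin and growth hormone receptors, was near background. Its probe had raw intensities from 501.2 to 668.3 and was detected on 7 of the 12 arrays: 1 of 3 with givinostat, and 2 of 3 each with sorafenib, with the combination and in control. Its log2 values were 6.85, 7.55 and 6.76 with givinostat, 7.86, 7.78 and 6.28 with sorafenib, 7.87, 6.04 and 7.52 with the combination, and 6.82, 7.34 and 6.40 in control. They overlapped in every pair of groups. Without the filter on dim probes its differences from control were 0.20 ± 0.51, 0.45 ± 0.51 and 0.29 ± 0.51 for givinostat, sorafenib and the combination (limma adjusted p = 0.987, 0.866 and 0.911).

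Over the 7 tested genes, the groups did not overlap for 2 higher (STAT4 and JAK1) and 3 lower (STAT5A, STAT6 and TYK2) with givinostat, against 10.5% and 8.96% of all genes. With sorafenib 2 were higher (STAT4 and JAK1) and 0 lower, against 13.3% and 12.3%. With the combination 2 were higher (STAT4 and JAK1) and 1 lower (STAT5A), against 14.6% and 14.2%. An unadjusted p under 0.05 was found for 3 members with givinostat (STAT4, STAT5A and STAT6), against 12.9% of all genes, 1 with sorafenib (STAT4), against 19.9%, and 3 with the combination (STAT4, STAT5A and JAK1), against 24%. The median log2 change of the 7 was -0.28 with givinostat, 0.08 with sorafenib and -0.23 with the combination, and that of all genes lay between -0.02 and 0.00. Between the combination and givinostat, 0 of 7 were called by limma, 1 had an unadjusted p under 0.05 (STAT4; 19.9% of all genes), and 1.68% of all genes were called. Between the combination and sorafenib, 0 of 7 were called, 2 had an unadjusted p under 0.05 (STAT4 and TYK2; 15.6% of all genes), and 0.359% of all genes were called.

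Other genes of the pathway were read from lists of ligands, receptor chains, adaptors and nuclear partners, inhibitors and phosphatases, and targets. Of 35 ligands 8 were tested. IL22, a cytokine that acts through STAT3 in epithelial cells, fell with sorafenib to 9.21, 8.72 and 8.90, against 11.58, 10.82 and 10.70 in control, a change of -2.09 ± 0.24 (limma adjusted p = 0.00323). It was higher in the combination than with sorafenib alone by 1.85 ± 0.24 (limma adjusted p = 0.014), with 10.41, 11.09 and 10.88 in the combination samples. OSM, which signals through gp130 and JAK1, fell with the combination by 0.98 on the log2 scale (SE 0.18, limma adjusted p = 0.0124). No other ligand was called in any comparison. Of all genes, 3.38% were called with sorafenib, 6.99% with the combination and 0.359% between the combination and sorafenib. The median change of the ligand list was 0.21, -0.04 and -0.27 with givinostat, sorafenib and the combination.

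Of 41 receptor chains 22 were tested. By limma 0 were called with givinostat or with sorafenib, against 0.0866% and 3.38% of all genes. There 3 and 8 had an unadjusted p under 0.05, against 12.9% and 19.9% of all genes. With the combination 3 passed as higher and 2 as lower, against 4.02% and 2.97% of all genes. IL20RB, a chain of interleukin-20 family receptors, rose by 1.26 ± 0.20 (2.40-fold, limma adjusted p = 0.00684). IFNAR2, the interferon receptor chain that binds JAK1, rose by 0.87 ± 0.20 (limma adjusted p = 0.0279), and IL7R rose by 0.80 ± 0.21 (limma adjusted p = 0.0453). IL2RA, the interleukin-2 receptor alpha chain, fell to 12.48, 11.84 and 11.99 in combination samples, against 13.13, 12.99 and 12.97 in control, a change of -0.92 ± 0.19 (limma adjusted p = 0.0209). OSMR, named after its values were seen, is the other of these, but it was detected on none of the combination arrays and on 1 of 3 control arrays, and no size is given for it.

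The same receptor list had IL20RB higher in the combination than with givinostat, by 1.18 ± 0.20 (limma adjusted p = 0.0197). In this comparison 20 of the 22 tested chains did not pass, and 1.68% of all genes were called. OSMR entered the fit only through the givinostat group, where all 3 arrays detected it, and none of the combination arrays did. That pass of the filter fixes the direction, so no test of it is given. The median change of the receptor list was 0.08, 0.11 and 0.06 with givinostat, sorafenib and the combination.

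Among 15 tested inhibitors and phosphatases, CISH, a feedback inhibitor induced by STAT5, was the only gene called. Of all genes, 3.38% were called with sorafenib, 6.99% with the combination and 1.68% between the combination and givinostat. CISH was called in each of these comparisons. It fell to 9.66, 9.25 and 9.10 with the combination, against 11.10, 10.81 and 10.62 in control, a change of -1.51 ± 0.24 (2.84-fold lower, limma adjusted p = 0.00659). With sorafenib it fell by 0.99 on the log2 scale (limma adjusted p = 0.0494). The combination was lower than givinostat by 1.33 (log2 change -1.33 ± 0.24, limma adjusted p = 0.0226). The median of the list was 0.08 with givinostat, -0.14 with sorafenib and -0.10 with the combination.

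Of 13 tested adaptors and nuclear partners, TRIM28, a corepressor, fell with sorafenib (-0.83 ± 0.16, limma adjusted p = 0.026). The other 12 did not pass, and 3.38% of all genes were called with sorafenib. Of 22 tested targets, the kinase genes PIM1 (-0.98 ± 0.21, limma adjusted p = 0.0374) and PIM2 (-0.77 ± 0.16, limma adjusted p = 0.0335) fell with sorafenib. With sorafenib 9 of the 22 targets had a positive log2 change and 13 a negative one. IL18R1, a chain of the interleukin-18 receptor, rose with sorafenib to 9.80, 9.23 and 9.05, against 8.58, 8.42 and 8.15 in control (0.97 ± 0.21, limma adjusted p = 0.0357). IL18R1 rose with the combination too, by 1.19 ± 0.21 (limma adjusted p = 0.00942). BATF, an AP-1 family factor, fell with the combination (-0.74 ± 0.20, limma adjusted p = 0.0482). With givinostat 0 of the 22 targets were called. With sorafenib 1 was called higher and 2 lower, and with the combination 1 higher and 1 lower. Of all genes, 0.0866% were called with givinostat, 3.38% with sorafenib and 6.99% with the combination. The medians of the target list were 0.05, -0.17 and -0.36 with givinostat, sorafenib and the combination.

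Calls of this size depend on few arrays. CISH with the combination passed under all 22 alternatives, IL22 with sorafenib under all 23, and IL18R1, IL20RB and OSM with the combination under 21 of 22. The other named calls passed under fewer, down to 7 of 22 for BATF and IL7R and 10 of 23 for CISH with sorafenib. With array median scaling the calls of BATF, IFNAR2, IL7R, IL18R1, IL20RB, PIM1, PIM2, TRIM28 and CISH with sorafenib were lost. Without combination B the combination calls of IL2RA (limma adjusted p = 0.0671), IFNAR2 (0.07), IL7R (0.114) and BATF (0.124) were lost. So were those of CISH against givinostat (0.0639), IL22 against sorafenib (0.0738) and CISH with sorafenib (0.0594).

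**Figure D4:**
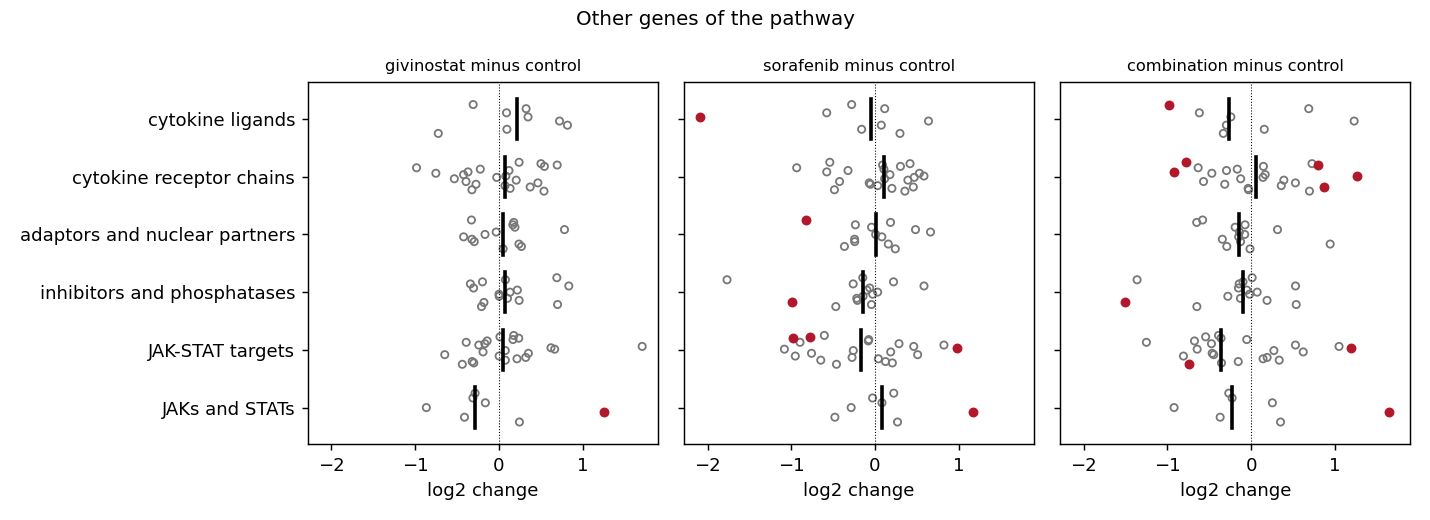
Log2 change (horizontal axis) of every tested gene of 5 pathway lists and of the 7 tested JAK and STAT genes, with givinostat, sorafenib and the combination against control. Each circle is a gene, filled where the limma adjusted p is under 0.05, and the black bar is the list median. The filled member in each panel is STAT4, and the lowest filled ligand is IL22 with sorafenib at -2.09.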

How the data were processed

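Total RNA of 12 samples was measured on Illumina bead arrays. The authors deposited non-normalized probe intensities and, per the file headers, a detection value per probe, a fraction for which 1 minus the value is the detection p. The submitters' processing notes name BeadStudio. Here neqc (limma 3.58.1, R 4.3.3, offset 16) corrected their background and quantile-normalized them. The deposited series values, an intensity on a linear scale whose arrays differ by at most 0.275% at equal rank, served as an alternative. Probes were named by the platform annotation (28098 with 1 symbol, 13 with several, 20692 with none), and STAT2 was not analysed here. limma was fitted over all 12 arrays (8 residual degrees of freedom, 6 comparisons), with p-values adjusted by Benjamini-Hochberg over 8079 genes, and the fit was tested on simulated data. Named were all members, from each list and comparison up to 4 called genes with the largest change, and the 3 genes most correlated with a called member. OSMR against control lies outside that rule. Members and lists were chosen with earlier results of these data known. The letters were treated as paired for givinostat, sorafenib and control, where all 9 same-letter correlations of deviations lay between 0.177 and 0.408. With the combination they lay between -0.139 and 0.363. Combination A correlated with the A arrays (0.31, 0.363 and 0.321 for control, givinostat and sorafenib). Combination B correlated with the C arrays (0.316, 0.261 and 0.158), and combination C with the B arrays (0.255, 0.29 and 0.234). What lies behind this pattern was not tested. The combination letters were not treated as paired, and the blocked values in the results leave out the combination arrays. The number of arrays limits the precision.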

Additional observations from a re-analysis of the deposited data

How the results depend on the processing

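With the letter as a replicate block, 2 members passed with givinostat (also 2 without the combination arrays) and 2 with the combination. STAT5A joined STAT4 in each, with a limma adjusted p of 0.0219 with givinostat (0.0294 without the combination arrays). With the combination the limma adjusted p of STAT5A was 0.0052, but the combination letters were not treated as paired. The block over all arrays gave 166 called genes with givinostat, 706 with sorafenib and 1068 with the combination. With givinostat 0 members passed under array median scaling, without a filter on dim probes, with all kept probes tested and with only the compared groups, and leaving out 1 sample gave 0 to 1. With sorafenib 0 passed under array median scaling and with only the compared groups. The cause was not tested. The members' log2 changes were otherwise on the same side of 0 and of the threshold in 880 of the alternatives' values.

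Array median scaling moved the median of all genes to -0.29 (combination minus control), -0.39 (minus givinostat), -0.32 (minus sorafenib) and -0.42 (interaction). Under it these values turned sign with that common shift, and none passed the threshold on either side: STAT5B -0.076 for the combination minus control; JAK1 -0.32, STAT3 -0.37, STAT4 -0.047, STAT5B -0.0096, STAT6 -0.36 and TYK2 -0.41 for the combination minus givinostat. For the combination minus sorafenib they were JAK1 -0.25, STAT3 -0.21 and STAT5B -0.17, and for the interaction STAT5A -0.19, STAT5B -0.11 and STAT6 -0.36. Relative to that median every one of these but TYK2 (-0.0175) kept its sign: 0.216 for STAT5B against control, then JAK1 0.0648, STAT3 0.0183, STAT4 0.342, STAT5B 0.379 and STAT6 0.0268 against givinostat. They were JAK1 0.0732, STAT3 0.118 and STAT5B 0.151 against sorafenib, and STAT5A 0.232, STAT5B 0.313 and STAT6 0.0616 for the interaction. With cyclic loess TYK2 was -0.048 for the combination minus givinostat.

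Leaving out 1 sample turned the sign of values near 0, none of which passed. For the combination minus givinostat the ranges were -0.0097 to 0.238 for JAK1, -0.0827 to 0.142 for STAT3, -0.365 to 0.197 for STAT5A, -0.0067 to 0.144 for STAT6 and -0.125 to 0.112 for TYK2. For the combination minus sorafenib they were -0.0322 to 0.150 for JAK1, -0.0464 to 0.333 for STAT3 and -0.0502 to 0.351 for STAT5B. For sorafenib minus control they were -0.0842 to 0.234 for STAT5B and -0.120 to 0.0503 for STAT6, and for the STAT5A interaction -0.0809 to 0.543. Counts of called genes ran from 0 to 21 with givinostat, 70 to 260 with sorafenib, 199 to 543 with the combination, 14 to 138 for the combination minus givinostat and 0 to 36 for the combination minus sorafenib when 1 sample was left out. Over the other settings they ran from 0 to 166, 24 to 714, 96 to 1068, 5 to 590 and 0 to 175. Signal over background limits JAK2, and the chip was not run as a block because the headers name none.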
